A study of Zea mays with 4 samples.

Results

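The cells described here are protoplasts of maize (Zea mays) B73 endosperm at 7 days after pollination (DAP) in which the aleurone gene AL9 (Zm00001d012572) took an intermediate share of the RNA molecules counted. They were chosen by measured values. A cell barcode was kept when it held 500 to 7500 genes, at least 3000 unique molecular identifiers (UMIs, each 1 counted RNA molecule) and a ratio of the natural logs of genes and UMIs of at least 0.8. An AL9-intermediate cell then had AL9 at 2% or more and under 4% of its UMIs, and 4 transfer layer genes (BETL9, BETL10, BETL3 and BAP2) together under 1%. Of the 9960 barcodes kept at 7 DAP, 1355 met this rule. They were set against 3790 AL9-high barcodes (AL9 at 4% or more) and 3879 AL9-low barcodes (AL9 under 2%) with the same transfer layer limit, within each library.

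The series holds 4 droplet 3′ single-cell RNA-seq libraries of protoplasts from endosperms of many pooled kernels of the inbred line B73, with no treatment or mutation in any group. There was 1 library at 6 DAP and 3 at 7 DAP, here named 7 DAP replicates 1, 2 and 3, and they hold 21654 barcodes as deposited. The labels do not say that the 7 DAP libraries came from separate plants. The p-values therefore measure only how far the differences between groups varied across these libraries. Between 26756925 and 36740377 UMIs per library were deposited at 7 DAP.

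The aleurone is the outermost cell layer of the cereal endosperm, and it later secretes the enzymes that mobilise the reserves of the germinating grain. The starchy endosperm beneath it stores starch and zein proteins, and the basal transfer layer takes up sugars and amino acids from the mother plant. Aleurone and starchy endosperm cells lie next to each other, and their fates depend on position and on regulators such as CR4, NKD1, NKD2 and VP1. Which genes accompany AL9 in cells with less of it was the question of the comparisons.

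AL9-intermediate cells were 414 of 3037 kept barcodes in replicate 1 (13.6%, exact 95% interval 12.4 to 14.9), 510 of 3640 in replicate 2 (14.0%, 12.9 to 15.2) and 431 of 3283 in replicate 3 (13.1%, 12 to 14.3). The share was 13.6% ± 0.443 (SD, n = 3), and the intervals, which cover counting error only, overlapped. Up to 4 barcodes were shared between any pair of libraries, and no barcode was AL9-intermediate in both libraries of a pair. The median AL9 share was 2.87%, 2.83% and 2.93% of UMIs among them, 8.53%, 8.98% and 8.27% among AL9-high barcodes and 0.420%, 0.368% and 0.389% among AL9-low barcodes. These values follow from the rule.

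The limits cut a continuous range. Counting error alone gives an AL9 share of 2% a standard deviation of 0.256 percentage points at 3000 UMIs, and a share of 4% one of 0.358 points. In replicate 1, 59 barcodes lay just under the lower limit (1.75% to under 2%) and 67 just over it (to under 2.25%). There, 51 barcodes lay just under 4% and 50 just over it. Just outside and just inside the lower limit, the aleurone protease gene SBT1 stood at 367 and 318 CPM in replicate 1, 432 and 367 in replicate 2 and 387 and 419 in replicate 3. CPM is the count per 1000000 UMIs outside the 5 rule genes. The class is a range of AL9 values, and no gap separated it from its neighbours.

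Depth did not follow the order of AL9. The AL9-intermediate barcodes had the highest median depth in each library, with 6156, 8050 and 8636 UMIs, against 5943, 7476 and 7726 in AL9-high and 5548, 6431 and 6152 in AL9-low barcodes. Thinned to 3000 UMIs each, they held a median of 1680, 1653 and 1657 genes. AL9-high barcodes held fewer (1524, 1479 and 1489) and AL9-low barcodes more (1767, 1751 and 1752), and the libraries of the 3 groups did not overlap. AL9 was counted among the 3000 UMIs, so fewer were left for other genes where AL9 was high. How much of this order follows from the rule was not tested. Mitochondrial transcripts took a median 0.0822%, 0.0691% and 0.0525% of UMIs in AL9-intermediate barcodes, between AL9-high (0.0516%, 0.0460% and 0.0380%) and AL9-low (0.151%, 0.138% and 0.123%) within each library. With 3 libraries, a paired exact permutation test cannot give a p below 0.25, so these medians carry no test. The highest doublet scores (the 4.22% to 4.73% of kept barcodes with the top Scrublet scores) took in 7.00%, 7.45% and 8.35% of AL9-intermediate barcodes, against 4.19%, 4.03% and 3.82% of AL9-high and 5.38%, 4.94% and 3.93% of AL9-low barcodes. The caller itself marked 0 of these barcodes, against an expected rate of 4.22% to 4.73%, so its calls were not used. Why it marked none was not tested. Without the top-scoring barcodes the gene comparisons gave similar counts (3574 and 5003 genes called, against 3582 and 5094 with them).

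Markers of the aleurone other than AL9 were clearly present. Of 6 listed markers, 5 could be tested. The remaining marker, Zm00001d024210, had 0 UMIs in every group. DEF2 and DEF1 encode defensin-like proteins, small peptides usually tied to defence, SBT1 a subtilisin-type protease, VPP7 a proton-pumping pyrophosphatase, and DHN1 a dehydrin, a class of proteins made in drying seed tissue. All 5 were higher in AL9-intermediate than in AL9-low barcodes, where 15.9% of all 18135 genes tested were. Against AL9-high barcodes 4 were lower and 1 higher, where 11.1% of all genes were lower and 8.67% higher (edgeR quasi-likelihood test on UMIs summed per library, adjusted p under 0.05). The aleurone list was partly chosen by the study on these same libraries, so its direction is not independent evidence.

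SBT1 stood at 447, 460 and 445 CPM in AL9-intermediate barcodes of replicates 1, 2 and 3, at 805, 830 and 852 CPM in AL9-high and at 124, 118 and 122 CPM in AL9-low barcodes. No library of any group overlapped those of another, as for 34.0% of all genes against AL9-high and 41.0% against AL9-low barcodes. The log2 fold change was 2.03 (SE 0.05, adjusted p = 2.7e-21) against AL9-low and -1.03 (SE 0.05, adjusted p = 5.95e-15) against AL9-high barcodes. DEF2 followed the same order at 521, 439 and 448 CPM, against 859, 880 and 896 CPM in AL9-high and 163, 167 and 205 CPM in AL9-low barcodes, with log2 fold changes of 1.52 and -1.06 (SE 0.06 each, adjusted p = 4.78e-16 and 1.04e-12). VPP7 (237, 196 and 208 CPM) and DEF1 (87.2, 88.4 and 80.4 CPM) also fell between the other groups in each library. For DEF1 the difference from AL9-high barcodes was small, with a log2 fold change of -0.29 (SE 0.07, adjusted p = 0.00234).

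DHN1 broke this order. It stood at 128, 168 and 145 CPM in AL9-intermediate barcodes, above AL9-high (114, 120 and 108 CPM) and AL9-low barcodes (91.6, 99.4 and 89.1 CPM) in each library. The log2 fold changes were 0.78 against AL9-low (adjusted p = 5.92e-11) and 0.21 against AL9-high barcodes (SE 0.06, adjusted p = 0.0091). The call against AL9-high barcodes was lost without replicate 2 or replicate 3 (0.16 and 0.20), with DESeq2, without the replicate block, with AL9 from 2.5% to 3.5% and among barcodes of at most the median depth. Across the whole range of AL9, SBT1 was lowest in the barcodes with least AL9 and highest in those with most, whereas DHN1 was highest in barcodes with AL9 between 1.5% and 3% in each library and lower at both ends.

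**Figure D1:**
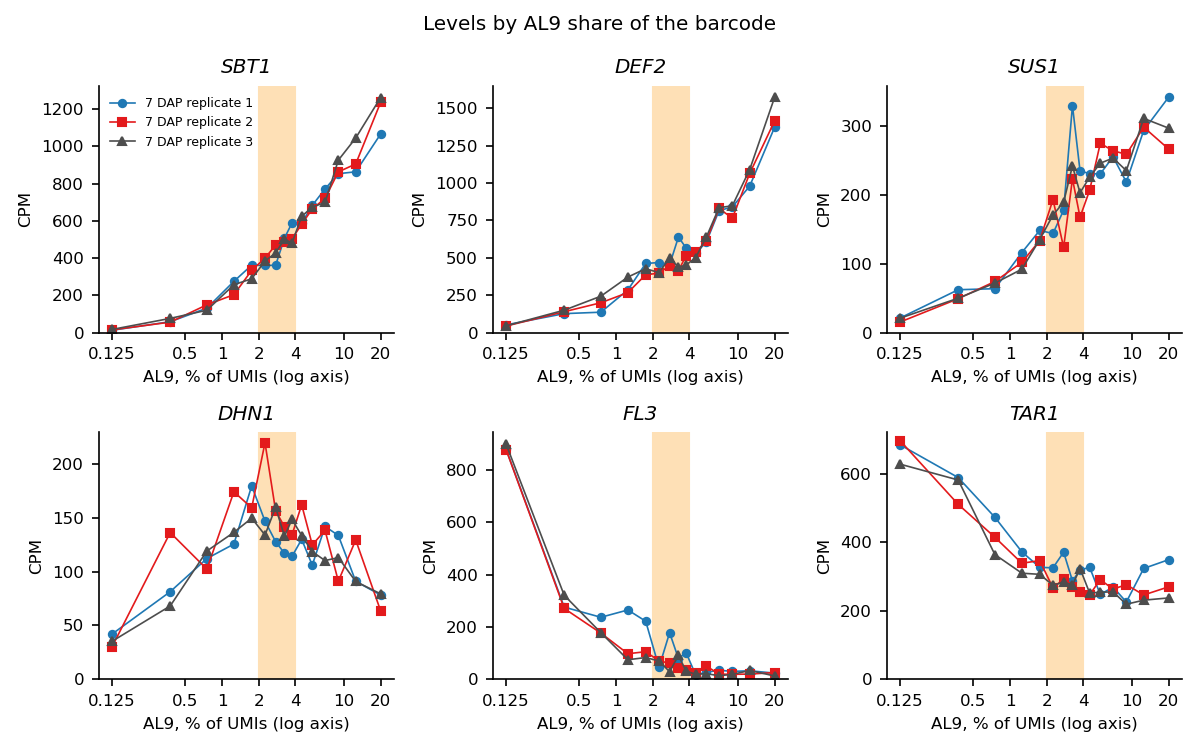
Levels of 6 genes (vertical axes, CPM) in the summed UMIs of barcodes binned by their AL9 share (horizontal axis, percent of UMIs, log axis; the last bin, 15% or more, is drawn at 20), with 1 line for each 7 DAP library and the AL9-intermediate range from 2% to 4% shaded. SBT1 is higher at the upper than at the lower end of the shaded range in each library, DEF2, SUS1 and FL3 vary from bin to bin within it, and DHN1 is highest between 1.5% and 3%.

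The regulators of the aleurone mostly differed from AL9-low but not, by the test, from AL9-high barcodes. Of 9 listed genes, 6 were higher than in AL9-low barcodes (VP1, HB91, WRKY8, OCL1, OCL5A and MYB32) and 0 were lower, where 15.9% and 12.2% of all genes were. Against AL9-high barcodes 1 was lower (HB91, log2 fold change -0.27, SE 0.09, adjusted p = 0.0393) and 0 higher, where 11.1% and 8.67% of all genes were. The HB91 call was lost under most alternatives, among them leaving out replicate 1 or replicate 2, DESeq2 and no TMM. Leaving out a library left 4 or 5 regulators higher than in AL9-low barcodes. OCL5A rested on 31 UMIs in AL9-intermediate barcodes (adjusted p = 0.0271). In replicate 1 OCL5A was lower there than in AL9-low barcodes (1.32 against 1.74 CPM). MYB32 rested on 73 UMIs (adjusted p = 0.0387). WRKY8, a WRKY transcription factor, stood at 113, 109 and 113 CPM, against 110, 106 and 86.9 CPM in AL9-high and 67.8, 63.8 and 63.9 CPM in AL9-low barcodes. Its log2 fold change was 0.90 against AL9-low (SE 0.07, adjusted p = 2.23e-11) and -0.00 against AL9-high barcodes (SE 0.06, adjusted p = 0.997). OCL1, a homeodomain factor of outer cell layers, gave 0.89 (adjusted p = 2.94e-11) and -0.11 (SE 0.06, adjusted p = 0.240). VP1, the B3 factor that mediates abscisic acid responses in the seed, gave 1.15 (adjusted p = 3.74e-09) and -0.04 (SE 0.10, adjusted p = 0.847). An adjusted p above the threshold does not show equal levels. NKD1 and NKD2, zinc finger factors needed for aleurone fate, passed the test in neither comparison. CR4, a receptor kinase, had 14 UMIs in all AL9-intermediate barcodes, too few to show a difference. Without the trimmed mean of M-values (TMM) scaling, 5 of these regulators were higher than in AL9-low barcodes and 1, NKD2, was lower.

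**Figure D2:**
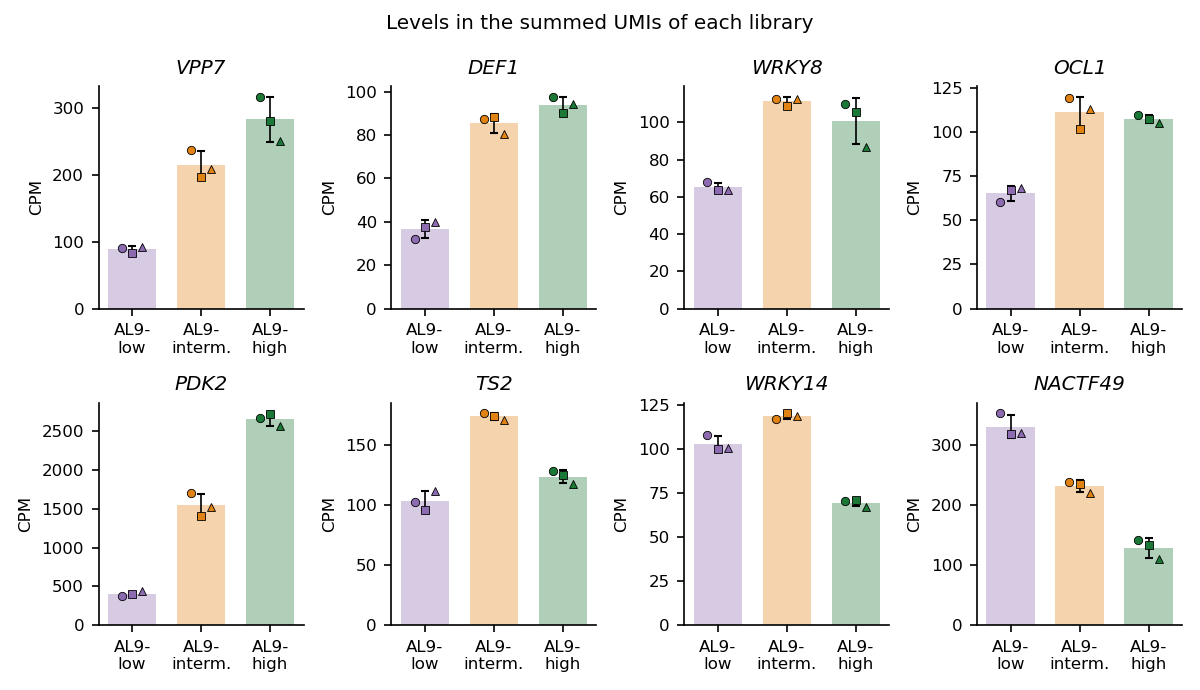
Levels of 8 genes (vertical axes, CPM) in the UMIs summed over AL9-low, AL9-intermediate and AL9-high barcodes, with bars at the mean of the 3 libraries at 7 DAP, error bars of 1 SD and a symbol for each library (circle, square and triangle for replicates 1, 2 and 3). VPP7, DEF1 and PDK2 lie in order of AL9, WRKY8 and OCL1 are similar in the intermediate and high groups, TS2 and WRKY14 are highest in the intermediate group, and NACTF49 falls with AL9.

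Starchy endosperm markers were mostly lower than in AL9-low barcodes. Of 12 listed genes 10 could be tested, and 8 of them were lower in AL9-intermediate than in AL9-low barcodes, where 12.2% of all genes were. PDK1 was higher (log2 fold change 0.28, adjusted p = 0.0455), but not without TMM and not among barcodes of at most the median depth (-0.24), and PDC1 passed in neither direction. FL3, which encodes a PLATZ protein of the storage cells, stood at 101, 53.5 and 53.4 CPM in AL9-intermediate barcodes, against 477, 431 and 423 CPM in AL9-low and 27.3, 24.8 and 19.6 CPM in AL9-high barcodes. The groups did not overlap, and the log2 fold changes were -2.61 against AL9-low (SE 0.09, adjusted p = 1.75e-17) and 1.33 against AL9-high barcodes (SE 0.11, adjusted p = 1.1e-09). O11, a bHLH factor of endosperm development, stood at 14.5, 14.1 and 12.7 CPM, against 54.0, 50.3 and 40.5 CPM in AL9-low and 6.99, 7.76 and 8.70 CPM in AL9-high barcodes. O11 fell by 1.68 on the log2 scale against AL9-low barcodes (adjusted p = 1.27e-11). The zein gene ZP27 had 3 UMIs in all AL9-intermediate barcodes, against 220 in AL9-low and 22 in AL9-high barcodes. Against AL9-high barcodes FL3, DE18, O11 and CNGT1 were higher and PDK1 was lower. DE18 encodes an auxin biosynthesis enzyme, and its log2 fold change was 0.90 (SE 0.15, adjusted p = 6.27e-05). Most AL9-intermediate barcodes held some transcripts of the listed genes. Thinned to 3000 UMIs, they held a median of 3, 2 and 3 UMIs of the 12 genes, and 16.2%, 18.8% and 14.4% held none. The medians were 4, 5 and 4 in AL9-low and 2, 2 and 2 in AL9-high barcodes. PDC1 (627, 635 and 644 CPM) and TAR1 (329, 272 and 289 CPM) were the most abundant tested genes of the list in AL9-intermediate barcodes. Neither was called against AL9-high barcodes (adjusted p = 0.164 and 0.957), so these sums say little about markers such as FL3. The starchy endosperm list was also partly chosen on these libraries.

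How far each aleurone marker had risen differed between markers. On the linear CPM scale, with AL9-low at 0% and AL9-high at 100%, SBT1 in AL9-intermediate barcodes stood at 47.5%, 48.1% and 44.3% of the way in replicates 1, 2 and 3, and DEF2 at 51.4%, 38.1% and 35.2%. VPP7 stood at 64.7%, 57.4% and 73.2% and DEF1 at 84.2%, 96.4% and 74.3%, while DHN1 lay beyond the AL9-high level. AL9 itself, by the rule, was at 21.6%, 21.4% and 24.4%. These positions are a description with no test, and on this scale rising and falling genes cannot be set against each other, since an equal fold puts a falling gene further along.

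FL3 and aleurone transcripts were looked for in the same barcodes, each thinned to 3000 UMIs. FL3 was found in 12.6%, 11.2% and 11.8% of AL9-intermediate barcodes, against 34.4%, 35.5% and 35.6% of AL9-low and 5.50%, 5.83% and 5.02% of AL9-high barcodes. In barcodes with the 4 transfer layer genes at 2% or more, taken as a background, FL3 was found in 9.38%, 9.16% and 6.82%. These were 128, 131 and 132 barcodes with a median of 9445, 11298 and 13204 UMIs before thinning. Their FL3 shares were above those of AL9-high barcodes in each library, so they do not mark the lowest FL3 detection. That background was measured after seeing that only 16 barcodes reached 5%, of which 12.5% held FL3. The share in AL9-intermediate barcodes was above this background by a few percentage points in each library. The difference was not tested. The background rests on few barcodes, and these were deeper before thinning than AL9-intermediate barcodes (medians of 6156, 8050 and 8636 UMIs). At least 2 FL3 UMIs were held by 5.80%, 4.51% and 3.94% of them, against 3.13%, 3.05% and 1.52% of the transfer layer barcodes.

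At least 1 of the 5 aleurone markers was found with FL3 in 40 of 414 AL9-intermediate barcodes in replicate 1 (9.66%, exact 95% interval 6.99 to 12.9), in 8.04% (5.83 to 10.7) in replicate 2 and in 9.51% (6.91 to 12.7) in replicate 3. In AL9-low barcodes the share was 12.2%, 11.4% and 11.5%, and in AL9-high barcodes 5.15%, 5.40% and 4.54%. Barcodes with both were fewer than the product of the separate shares, which came to 11.2%, 9.51% and 10.3% in AL9-intermediate and 16.8%, 17.3% and 17.9% in AL9-low barcodes. In AL9-intermediate barcodes each product lay inside the exact interval of the share with both, so counting error covers that gap. In AL9-low barcodes each product lay above the interval (10.4 to 14.2, 9.75 to 13.1 and 9.79 to 13.4). Most AL9-intermediate barcodes (79.7%, 77.1% and 77.7%) held an aleurone marker without FL3, and 2.90%, 3.14% and 2.32% held FL3 without an aleurone marker. In transfer layer barcodes 19.5% to 22.7% held an aleurone marker at all, far below the 85.1% to 89.4% of AL9-intermediate barcodes.

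**Figure D3:**
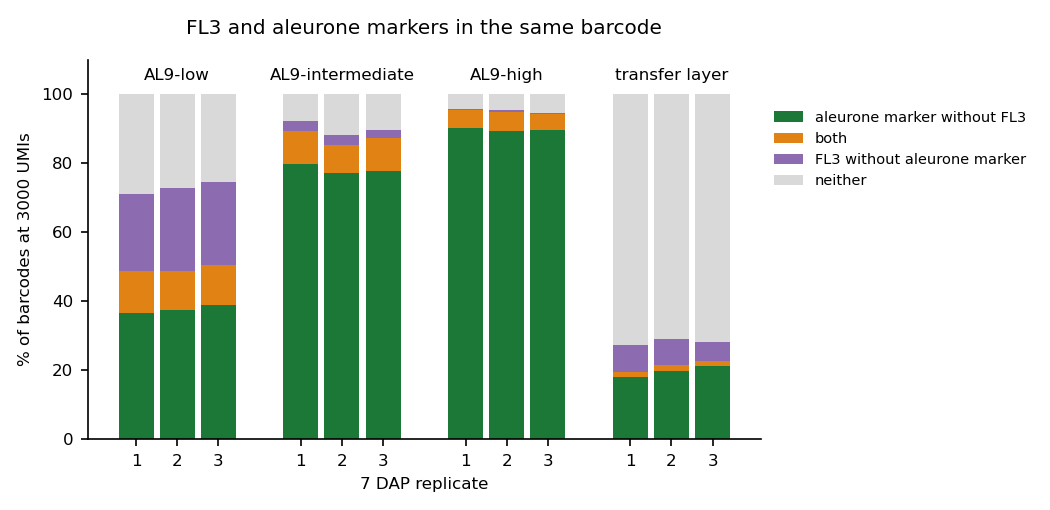
Share of barcodes (vertical axis, percent of barcodes thinned to 3000 UMIs) that held an aleurone marker without FL3, both, FL3 without an aleurone marker, or neither, with 1 stacked bar for each 7 DAP replicate (horizontal axis) in 4 groups of barcodes. Barcodes with both make up 8.04% to 9.66% of the AL9-intermediate bars.

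Across all genes, 3582 of 18135 (19.8%) differed between AL9-intermediate and AL9-high barcodes at adjusted p under 0.05, of which 1573 were higher and 2009 lower in the intermediate barcodes. Against AL9-low barcodes 5094 (28.1%) differed, 2890 higher and 2204 lower. Without replicate 2 the first count was 2226. Both comparisons use the same intermediate sums. The split depended on the scaling. Without TMM, dividing by total UMIs alone, 3725 were higher and 965 lower than in AL9-high barcodes, and 1824 higher and 3947 lower than in AL9-low barcodes, with the median of all genes at 0.17 and -0.13 on the log2 scale (0.02 and -0.01 with TMM). Most called differences were small, with a median size of 0.41 and 0.50 log2 units. Only 178 genes were called at least 2-fold higher and 67 at least 2-fold lower than in AL9-high barcodes, against 273 and 563 for AL9-low barcodes. Without TMM these counts were 384 and 37, and 192 and 779.

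Of the 10 genes with the largest fall against AL9-high barcodes, 9 also stood above the AL9-low level in each library. Of all genes, 26.7% lay between the AL9-low and AL9-high levels in each library. The 10 genes were chosen for a fall in each library, which bears on this count. Zm00001d007967 was the most abundant of them, at 6532, 8284 and 7171 CPM, against 18430, 19860 and 19720 CPM in AL9-high and 2421, 2980 and 2677 CPM in AL9-low barcodes, with a log2 fold change of -1.56 (SE 0.03, adjusted p = 1.95e-23) against AL9-high barcodes. The Aux/IAA gene Zm00001d049143, of a family that represses auxin responses, stood at 33.9, 34.7 and 33.0 CPM, against 117, 76.4 and 89.3 CPM in AL9-high and 10.1, 13.3 and 12.4 CPM in AL9-low barcodes (log2 fold change -1.59, adjusted p = 7.58e-12). A metallothionein-like gene, Zm00001d008620, fell by 1.18 (adjusted p = 3.51e-15), and an O-methyltransferase-like gene, Zm00001d024120, by 1.11 (adjusted p = 6.7e-15). Metallothioneins bind metal ions. The groups did not overlap for any of these 4 genes, as for 34.0% of all genes against AL9-high and 41.0% against AL9-low barcodes. DEF2 was also among the 10 genes with the largest fall, and the other 5 were likewise lower in each library.

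Against AL9-low barcodes the largest rise was that of the same O-methyltransferase-like gene, Zm00001d024120 (234, 246 and 261 CPM against 49.8, 58.0 and 59.2 CPM, log2 fold change 2.27, adjusted p = 3.3e-21). PDK2, a pyruvate, orthophosphate dikinase, an enzyme that interconverts pyruvate and phosphoenolpyruvate, stood at 1706, 1406 and 1525 CPM, against 375, 394 and 435 CPM in AL9-low and 2667, 2728 and 2567 CPM in AL9-high barcodes. The PDK2 log2 fold changes were 2.07 (SE 0.05, adjusted p = 7.38e-21) and -0.94 (adjusted p = 2.27e-13). LACS2, annotated as a long chain acyl-CoA synthetase that activates fatty acids, rose by 1.80 (adjusted p = 1.44e-13), and a serine carboxypeptidase-like gene, Zm00001d023964, by 1.85 (adjusted p = 4.83e-19). SUS1, a sucrose synthase, stood at 210, 176 and 199 CPM, against 65.2, 60.6 and 62.3 CPM in AL9-low and 262 CPM in each library of AL9-high barcodes, and rose by 1.76 against AL9-low (adjusted p = 5.61e-18). Of the 7 sugar and starch genes 6 were tested. SUS1, SUS2 and the hexose transporter gene SWEET4C were higher than in AL9-low barcodes, and SUS1 and SUS2 were lower than in AL9-high barcodes in each library. SWEET4C was also called lower than in AL9-high barcodes (log2 fold change -0.27, adjusted p = 0.0145), but in replicate 2 its AL9-intermediate level was the higher (90.7 against 78.9 CPM), and the call was lost without TMM, without the block and without replicate 1 or replicate 3. MN1, a cell wall invertase that cleaves incoming sucrose, fell by 1.20 against AL9-low barcodes (adjusted p = 0.00784) from 21 UMIs in AL9-intermediate barcodes, a call lost with DESeq2 and without replicate 2 or replicate 3. The starch branching enzyme gene AE1 fell by 1.93 against AL9-low barcodes (7.90, 10.3 and 9.37 CPM against 42.0, 38.8 and 37.1 CPM, adjusted p = 9.13e-13).

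Transfer layer genes outside the rule were intermediate too. All 12 lay between the AL9-low and AL9-high levels in each library, where 26.7% of all genes did. Of these, 10 were called higher than in AL9-high and 11 lower than in AL9-low barcodes, where 8.67% and 12.2% of all genes were. Zm00001d019030, listed by the study as MEG1, a maternally expressed gene of the transfer cells, stood at 45.1, 25.6 and 19.5 CPM, against 7.80, 11.6 and 5.15 CPM in AL9-high and 94.5, 77.1 and 63.3 CPM in AL9-low barcodes (log2 fold changes 1.62 and -1.31, adjusted p = 4.96e-08 and 2.05e-09). MRP1, the MYB-related regulator of transfer cell genes, gave 1.39 and -0.66 (adjusted p = 8.26e-06 and 0.00122). The signal was uneven among the cells. After thinning, 9.42%, 11.8% and 9.51% of AL9-intermediate barcodes held 30 or more UMIs of these 12 genes, and 57.2%, 61.4% and 66.6% held none. The same level was reached by 6.03%, 5.11% and 5.02% of AL9-high and 21.1%, 19.0% and 18.1% of AL9-low barcodes. They mark the same cell layer as the 4 genes that the rule limits, and with that limit at 0.5%, 6 of the 12 were higher than in AL9-high and 9 lower than in AL9-low barcodes. Among barcodes of at most the median AL9-intermediate depth, 6 were lower than in AL9-low barcodes. Their summed level in AL9-intermediate barcodes was 5872 to 6872 CPM, against 157100 to 165500 CPM in transfer layer barcodes.

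The 10 genes with the largest rise against AL9-high barcodes all lay between the AL9-low and AL9-high levels in each library. The part of transfer layer transcripts in these rises was not tested. PSEI8, a cystatin (an inhibitor of cysteine proteases), stood at 38.8, 34.9 and 49.2 CPM, against 10.1, 12.2 and 5.24 CPM in AL9-high and 164, 131 and 198 CPM in AL9-low barcodes, with a log2 fold change of 2.00 (SE 0.19, adjusted p = 8.08e-09). BAP3A, annotated as a basal layer antifungal peptide, rose by 1.57 (57.9, 54.1 and 55.8 CPM against 20.3, 19.7 and 11.2 CPM, adjusted p = 1.6e-10). A gene annotated as a blue copper protein, Zm00001d043357, rose by 1.39 (adjusted p = 1.01e-10). For PSEI8, BAP3A and Zm00001d043357 the groups did not overlap, and each was higher still in AL9-low barcodes. Of all genes, 34.0% did not overlap against AL9-high and 41.0% against AL9-low barcodes.

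Genes of the embryo-surrounding region, the cells around the young embryo, were much lower than in AL9-low barcodes and uneven between libraries. The 6 listed markers together stood at 300.9, 106 and 736 CPM, against 5592, 4819 and 4582 CPM in AL9-low and 96.1, 320 and 53.1 CPM in AL9-high barcodes. ESR1 stood at 6.58, 4.75 and 108 CPM in AL9-intermediate barcodes, against 773, 683 and 614 CPM in AL9-low and 6.32, 14.8 and 3.09 CPM in AL9-high barcodes. MEG14 stood at 256, 69.6 and 237 CPM, and its AL9-high libraries at 66.7, 211 and 30.6 CPM. Only 4, 1 and 6 AL9-intermediate barcodes held the 6 listed markers at 0.5% of UMIs or more. All 6 were lower than in AL9-low barcodes, where 12.2% of all genes were. ESR2 fell by 4.51 (adjusted p = 2.33e-09) and ESR1 by 4.1 (adjusted p = 1.94e-08) against AL9-low barcodes, of which 93.4% in replicate 1 held none of the 6 after thinning. Against AL9-high barcodes 2 of the 6 were called higher, ESR1 (log2 fold change 2.02, adjusted p = 0.0149) and Zm00001d038758 (3.56, adjusted p = 0.000579), and both values rested on replicate 3, without which ESR1 was at -1.19 and Zm00001d038758 at 0.34 (adjusted p = 0.481).

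Some genes were higher in AL9-intermediate barcodes than in either neighbouring group. Of all genes, 951 (5.24%) lay above both groups in each library and 512 (2.82%) below both, while 65.3% changed place between libraries. Against the mean of both groups on the log2 scale, 681 genes (3.76%) were higher and 292 (1.61%) lower at adjusted p under 0.05. The 973 calls (5.37%) dropped to 617, 377 and 546 when replicate 1, 2 or 3 was left out. An equal mixture of both groups would lie above the mean of their logs, so the genes named are those that also lay outside both groups in each library, 286 above (1.58%) and 75 below (0.414%). Of those above, 198 reached a mean of 20 CPM.

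TS2, a short-chain dehydrogenase gene known from sex determination in the tassel, was the most abundant of the 10 largest rises, at 177, 175 and 172 CPM, against 129, 126 and 118 CPM in AL9-high and 103, 96.2 and 112 CPM in AL9-low barcodes. The TS2 log2 fold change was 0.61 against the mean of both (SE 0.05, adjusted p = 6.9e-09), 0.34 against AL9-high (adjusted p = 7e-05) and 0.88 against AL9-low barcodes (adjusted p = 4.5e-12). Zm00001d038990, annotated as a tumor-related protein-like gene, had the largest rise, at 77.4, 95 and 89.0 CPM against 37.2, 33.4 and 37.6 CPM in AL9-high and 56.5, 58.4 and 69.95 CPM in AL9-low barcodes (log2 fold change 0.89, adjusted p = 2.9e-09). The transcription factor genes EREB133 (64.9, 57.2 and 61.6 CPM, log2 fold change 0.64, adjusted p = 1.87e-06) and the MYB gene Zm00001d028930 (33.3, 31 and 43.1 CPM, 0.67, adjusted p = 1.42e-05) were among the 10. So was a glutathione transferase gene, Zm00001d038192, of a family of detoxifying enzymes (0.63, adjusted p = 1.31e-05). In these 5 genes the AL9-intermediate libraries did not overlap either group. Of all genes, 34.0% did not overlap against AL9-high and 41.0% against AL9-low barcodes.

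The falls below both groups were fewer. PLT3, annotated as a phospholipid transfer protein, stood at 12.8, 9.50 and 14.1 CPM, against 24.5, 25.3 and 27.0 CPM in AL9-high and 15.4, 32.0 and 39.4 CPM in AL9-low barcodes (log2 fold change against the mean -1.23, adjusted p = 4.02e-05). Zm00001d025587 fell most (17.5, 13.6 and 10.3 CPM, log2 fold change -1.46, adjusted p = 6e-09). The metallothionein-like gene Zm00001d039914 gave -0.98 (adjusted p = 0.000623), with AL9-low libraries spread from 60.6 to 150 CPM. A heat shock protein gene, Zm00001d052194, was below both groups in each library by the rule, but by a small margin against AL9-high barcodes (49.4, 44.0 and 50.8 against 50.1, 44.8 and 50.9 CPM).

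Transcription factor genes were often higher than in AL9-high barcodes. Of 213 tested from the study's set of factors with binding profiles, which was chosen on these libraries, 69 (32.4%) were higher and 11 (5.16%) lower than in AL9-high barcodes, where 8.67% and 11.1% of all genes were. Their median log2 fold change was 0.22, against 0.02 over all genes. Without replicate 2 these counts were 48 and 4. Against AL9-low barcodes 32 were higher and 61 (28.6%) lower, where 15.9% and 12.2% of all genes were, with a median of -0.13. The 32 were near the share over all genes. NACTF49, a NAC factor, stood at 239, 236 and 220 CPM, against 142, 133 and 111 CPM in AL9-high and 354, 319 and 320 CPM in AL9-low barcodes (log2 fold changes 0.70 and -0.39, adjusted p = 2.58e-10 and 2.17e-06). EREB147 and EREB196, AP2 family factors, rose by 0.90 and 1.19 against AL9-high barcodes (adjusted p = 1.18e-10 and 2.02e-09) and were not called against AL9-low barcodes (adjusted p = 0.129 and 0.857). WRKY14 stood above both groups at 118, 121 and 119 CPM, against 70.4, 71.4 and 67.2 CPM in AL9-high and 108, 100 and 101 CPM in AL9-low barcodes. MYB83 rose by 1.58 (adjusted p = 2.51e-13) against AL9-low barcodes and HSFTF17, a heat shock factor, fell by 1.33 (adjusted p = 1.35e-11). Among barcodes of at most the median AL9-intermediate depth, 35 factors were higher and 5 lower than in AL9-high barcodes, where 4.81% and 6.36% of all genes were.

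**Figure D4:**
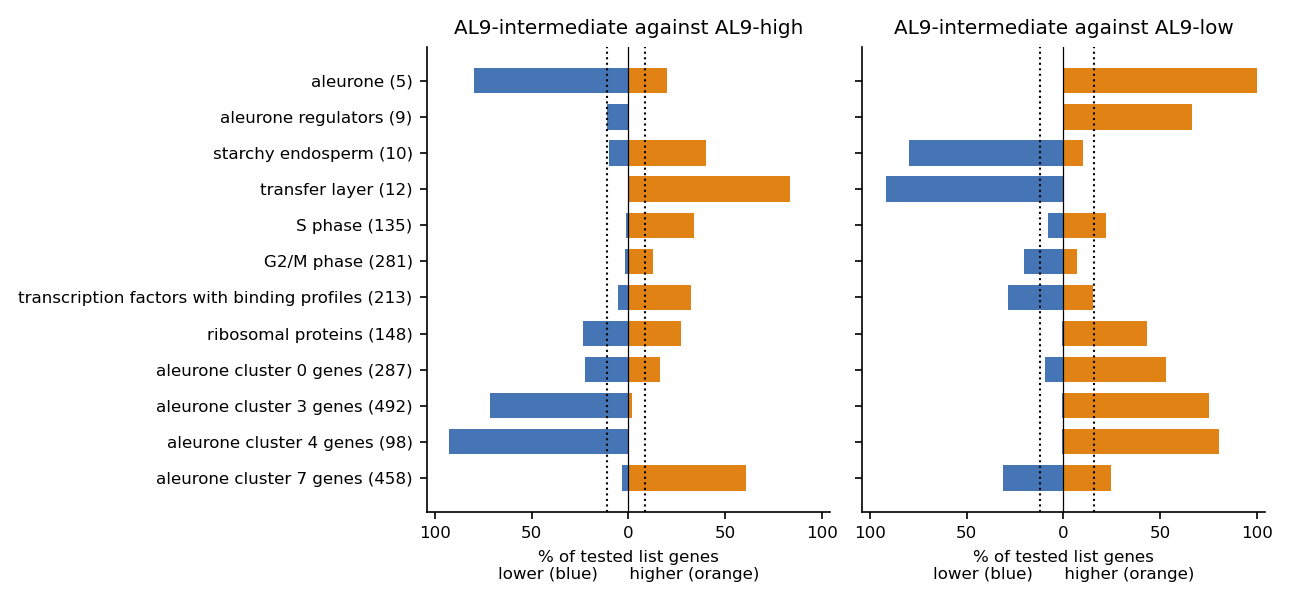
Percent of the tested genes of 12 lists (number tested in parentheses) that were higher (orange, to the right) or lower (blue, to the left) in AL9-intermediate than in AL9-high (left panel) or AL9-low barcodes (right panel) at adjusted p under 0.05, with dotted lines at the percent of all genes called. The aleurone markers and the cluster 3 and cluster 4 genes are mostly lower on the left and higher on the right. Cluster 7 genes are mostly higher on the left and split on the right. Cluster 0 genes and aleurone regulators are mostly higher on the right but not mostly lower on the left. Transcription factors are higher on the left in 69 of 213 cases, while the direction of ribosomal protein and S phase genes on the right turns without TMM.

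Replication genes were often higher than in AL9-high barcodes. Of 135 S phase genes tested, 46 (34.1%) were higher and 2 lower than in AL9-high barcodes, where 8.67% and 11.1% of all genes were, with a median log2 fold change of 0.17. The 46 became 24 without replicate 2, 30 with DESeq2 and 81 without TMM. The histone H3.2 gene Zm00001d003730 stood at 198, 214 and 216 CPM against 128, 121 and 119 CPM in AL9-high barcodes (0.63, SE 0.06, adjusted p = 1.14e-08), and the histone H2A gene Zm00001d021706 at 631, 720 and 633 CPM against 441, 456 and 471 CPM (0.38, adjusted p = 5.35e-07). Histone genes have many near-identical copies, between which 3′ reads could be split. Per barcode of 3000 UMIs, the median was 45, 53 and 48 S phase UMIs, against 33, 33 and 34 in AL9-high and 55, 53 and 53 in AL9-low barcodes. The 90th percentile of AL9-intermediate barcodes was 180, 210 and 201 UMIs. Against AL9-low barcodes the direction of this list depended on the scaling and on the depth. With TMM 30 were higher and 11 lower, where 15.9% and 12.2% of all genes were. Without TMM 6 were higher and 34 lower, and at 6000 UMIs 5 were higher and 14 lower. Only 14 were higher without replicate 2 and 15 without replicate 3. Both were near the share over all genes in those fits (2167 of 18254 and 2213 of 18180 genes). Of 281 G2/M genes, 35 (12.5%) were higher and 5 lower than in AL9-high barcodes, and 19 were higher and 58 (20.6%) lower than in AL9-low barcodes, where 12.2% of all genes were lower. The 35 became 13 without replicate 2 (4.63%, against 4.95% of all genes) and 16 with AL9 from 2.5% to 3.5% (5.65%, against 5.70%), both near the share over all genes, 17 with DESeq2 and 106 without TMM. The 58 became 35 without replicate 2, 30 with DESeq2 and 115 without TMM. No cell cycle phase was called per cell. Ribosomal protein genes gave no stable direction against AL9-high barcodes (40 higher and 35 lower of 148 with TMM, 102 and 7 without).

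Jasmonate genes were graded unevenly. Of 31 biosynthesis genes tested, 11 (35.5%) were higher and 3 lower than in AL9-low barcodes, where 15.9% and 12.2% of all genes were. Without TMM these were 8 and 3. Against AL9-high barcodes 3 (9.68%) were higher, near the 8.67% of all genes, and 6 (19.4%) lower, against 11.1%. AOC1, the allene oxide cyclase of jasmonate synthesis, stood at 80.0, 73.3 and 90.2 CPM, against 131, 140 and 136 CPM in AL9-high and 34.1, 32.0 and 32.5 CPM in AL9-low barcodes (log2 fold changes -0.90 and 1.43, adjusted p = 4.69e-11 and 4.16e-14). OPR1 and OPR2, 12-oxo-phytodienoic acid reductases, instead lay above both groups in each library, OPR2 at 683, 712 and 726 CPM against 603, 599 and 531 CPM in AL9-high and 578, 554 and 603 CPM in AL9-low barcodes. ZIM16 and ZIM10, of the ZIM family that includes repressors of jasmonate responses, were higher than in AL9-high barcodes (0.62 and 0.39, adjusted p = 1.87e-07 and 1.09e-05). Of the ethylene synthesis genes, ACS7 rose by 1.03 against AL9-low barcodes (adjusted p = 6.45e-12) and was not called against AL9-high barcodes (adjusted p = 0.738). Among auxin genes, TAR3, a tryptophan aminotransferase, fell by 1.15 against AL9-high barcodes (adjusted p = 5.28e-08), whereas TAR1 showed no called difference there (0.01, adjusted p = 0.957) and fell by 0.65 against AL9-low barcodes (adjusted p = 1.04e-10).

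Gene lists of the study's 4 aleurone clusters, drawn from these same cells, separated by their cluster. Of cluster 4 genes, 91 of 98 were lower and 0 higher than in AL9-high barcodes, where 11.1% and 8.67% of all genes were, and of cluster 3 genes 353 of 492 were lower and 9 higher. Cluster 7 genes ran the other way, with 278 of 458 (60.7%) higher and 15 lower than in AL9-high barcodes. Cluster 0 genes were split, with 47 higher and 64 lower of 287, 123 and 19 without TMM, 41 and 37 without replicate 1, 28 and 48 without replicate 2, and 27 and 52 without replicate 3. Against AL9-low barcodes, where 15.9% of all genes were higher and 12.2% lower, 79 cluster 4 genes were higher and 1 lower, 369 cluster 3 genes higher and 4 lower, and 152 cluster 0 genes higher and 28 lower. Of cluster 7 genes, 113 were higher and 143 lower there, 67 and 221 without TMM, and 99 and 98 without replicate 3, so the direction was not stable. Without replicate 1 the higher genes (108) also outnumbered the lower. Among cluster 4 genes a cytochrome c-like gene, Zm00001d038218, of the respiratory chain, stood at 3432, 3882 and 3911 CPM, against 5159, 5990 and 6067 CPM in AL9-high and 2278, 2541 and 2638 CPM in AL9-low barcodes (log2 fold changes -0.77 and 0.72, adjusted p = 5.15e-17 and 3.21e-17).

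The AL9-intermediate cells differed among themselves, most of all in transfer layer transcripts. Over 4019 genes with a mean of at least 0.1 UMI per thinned barcode, the median ratio of variance to mean was 1.10, close to that of pure counting error. Zm00001d053785, a transfer layer gene, had ratios of 137, 105 and 89.0 and was found in 32.4%, 28.8% and 23.9% of barcodes. Zm00001d052759, of the same list, followed with 96.4, 77.1 and 106. Next was MEG14, a maternally expressed gene of the embryo-surrounding region, with 123, 45.7 and 69.1 in only 3.62%, 3.92% and 3.25% of barcodes. AL9-low barcodes had ratios of 120, 122 and 139 for Zm00001d053785 and 156, 130 and 168 for Zm00001d052759. For MEG14 they had 254, 222 and 305. AL9-high barcodes had 79.9, 130 and 79.0 for Zm00001d053785, 63.3, 68.7 and 98.3 for Zm00001d052759, and 16.2, 137 and 5.53 for MEG14. Unevenness in these genes was thus not particular to AL9-intermediate cells. The graded gene Zm00001d007967 had ratios of 28.7, 32.4 and 26.4, below those in AL9-high barcodes (69.2, 65.7 and 63.3). Its means were also lower, at 19.4, 22.6 and 19.8 UMIs per barcode against 51.2, 52.2 and 53.4. The ratio can grow with the mean, so it does not show a smaller relative spread. A histone H4 gene, H4C7 (Zm00001d027394), had 14.3, 21.6 and 25.1. PDK2 (11.8, 12.8 and 11.6) and the thioredoxin gene TRH2 (13.4, 13.0 and 15.4) completed the named part of the 15 most uneven genes.

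**Figure D5:**
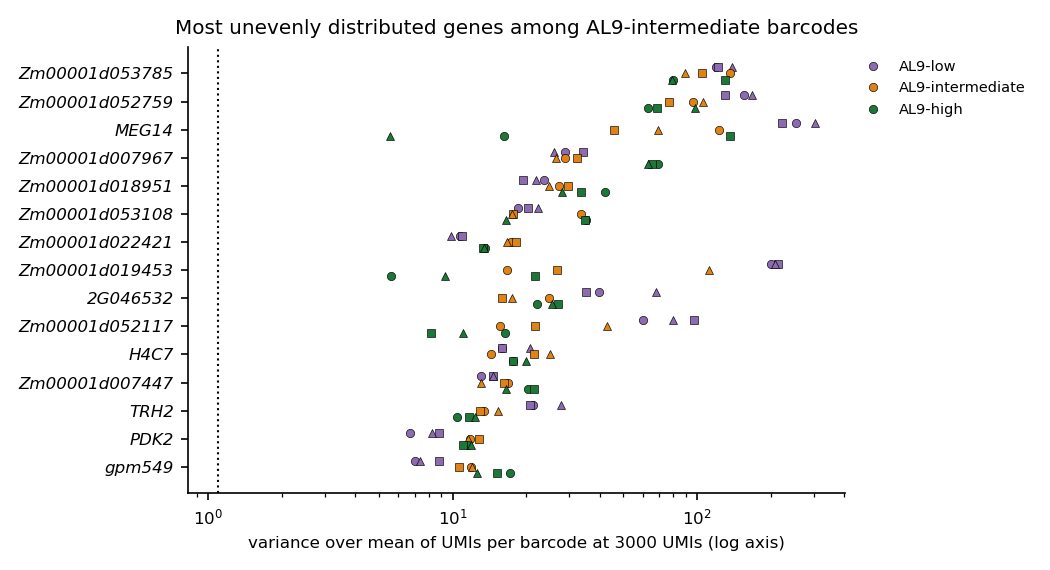
Ratio of the variance to the mean of UMIs per barcode thinned to 3000 UMIs (horizontal axis, log axis) of the 15 genes (vertical axis) with the highest ratios among AL9-intermediate barcodes, with 1 symbol for each library (circle, square and triangle for replicates 1, 2 and 3) and a colour for each AL9 group. The dotted line marks the median of 1.10 over 4019 genes, and Zm00001d053785 (top) reaches 137 in AL9-intermediate barcodes.

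Within the AL9-intermediate range, the lower part (AL9 from 2% to under 3%) and the upper part (3% to under 4%) gave SBT1 levels of 361 and 556 CPM in replicate 1, 433 and 495 CPM in replicate 2 and 406 and 491 CPM in replicate 3. SBT1 was higher in the upper part in each library. FL3 gave 108 and 92.4 CPM, 65.6 and 37.9 CPM and 48.4 and 59.3 CPM, lower in the upper part in 2 libraries and higher in 1. DEF2 gave 461 and 596 CPM, 421 and 462 CPM and 450 and 445 CPM, higher in the upper part in 2 libraries.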

How the data were processed

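UMI counts per gene and barcode were deposited by the authors as 1 filtered matrix for each library, with 45953 features. Per the file headers they were made with Cell Ranger 4.0.0, and the submitters' processing notes also name Seurat. The genome build and annotation behind these matrices are not given in the sources used here. Gene names are those of the feature table or the study's annotation. All 4 libraries were read, and every comparison used the 3 libraries of 7 DAP. Barcodes were filtered and grouped as stated above. The members and gene lists were chosen with earlier results of these data known. The counts that grouped the barcodes and those tested came from the same cells, and the 5 rule genes were left out of the table, the totals and the tests.

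UMIs were summed per library and AL9 group, and the 9 sums (3037993 to 11720716 UMIs) were fitted together with the library as a block, since the 3 sums of a library share its source. The study treated cells as replicates, which was not followed. edgeR 4.0.16 in R 4.3.3 was used (filterByExpr, TMM, glmQLFit and glmQLFTest, Benjamini-Hochberg over 18135 genes, adjusted p under 0.05), checked on simulated data. CPM values are not TMM-scaled and fold changes are. Thinning to 3000 UMIs used numpy 2.4.6 with seed 1 in Python 3.11.15, exact intervals scipy 1.17.1 and doublet scores the Scrublet of scanpy 1.11.5. Intervals cover counting error only.

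Named genes were the 10 largest rises and falls per comparison (same sign in 3 libraries, mean of 20 CPM or more, and for the third comparison outside both groups), all genes of short marker lists, up to 4 genes of each long list by adjusted p, and the 15 most uneven genes. Cluster, transcription factor and ribosomal lists came from the study's work on these libraries, marker lists partly so, and cell cycle and hormone lists did not. Alternatives were total scaling, DESeq2 1.42.0, no low-count filter, no block, leaving out each library, other AL9, UMI, complexity and transfer layer limits, removal of high doublet scores, shallow barcodes only and no organelle genes. Removal of barcodes rich in embryo-surrounding region markers and the 2% transfer layer background were chosen after seeing the data.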

Additional observations from a re-analysis of the deposited data

Results flagged for a closer look

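Under the same rule, 75 of 609 kept barcodes of the 6 DAP library were AL9-intermediate (12.3%, exact 95% interval 9.81 to 15.2), which no comparison above uses. In these barcodes DEF2 stood at 197 CPM from 60 UMIs, DHN1 at 138 CPM and FL3 at 39.5 CPM from 12 UMIs. The 451 AL9-low barcodes of that library held FL3 at 437 CPM and DEF2 at 75.9 CPM, and its 24 AL9-high barcodes held DEF2 at 154 CPM. This is 1 library, so the values have no replicate check, and the difference from 7 DAP was not tested.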

How the results depend on the processing

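The number of genes called moved with the tool, the depth, the library left out and the block. Against AL9-high barcodes (3582 genes) it was 2284 with DESeq2, 1714 among barcodes of at most the median depth and 2226 to 2695 when each library was left out. Against AL9-low barcodes (5094) it was 3186 with DESeq2. Against the mean of both (973) it was 552 with DESeq2, 525 at 6000 UMIs, 583 with AL9 from 2.5% to 3.5%, 459 at the median depth or less and 377 to 617 with a library left out. The fit without the replicate block gave 2574, 4200 and 368 genes. Without TMM the share of calls that were higher turned from 43.9% to 79.4% against AL9-high and from 56.7% to 31.6% against AL9-low barcodes. The cause of these changes was not tested.

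The share of kept barcodes (13.59%) was 6.557% with AL9 from 2.5% to 3.5%, 12.9% at 1000 UMIs, 14.56% at 6000, 13.13% with the transfer layer limit at 0.5% and 12.56% without the highest doublet scores. The difference in genes per thinned barcode from AL9-low was -85.5 with the narrower AL9 limits, -55.33 at 6000 UMIs, -100.2 with the 0.5% limit and -114.5 at the median depth or less. The share with both FL3 and an aleurone marker was 6.976% at 6000 UMIs and 12.39% at the median depth or less. The summed aleurone level against AL9-low was then 1.54 on the log2 scale and the starchy endosperm level -1.22, or -0.59 at 6000 UMIs. The thinned share at 1000 UMIs was not run, since such barcodes cannot be thinned to 3000.

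Of the log2 fold changes of single genes, 4007 values kept direction and call, 216 lost the call, 68 gained it and 24 turned. Against AL9-high barcodes these were, at the median depth or less, Zm00001d007470 (-0.46), with the 0.5% limit MEG13 (-0.09), without barcodes rich in embryo-surrounding region markers MEG14 (-1.32), ESR1 (-0.25) and Zm00001d053788 (-1.15), with a library left out ESR1 (-1.19 to 3.62), ESR2 (-1.08 to 2.49) and ESR3 (-3.71 to 2.70), each lowest without replicate 3, without TMM Zm00001d038865 (0.03) and ELFA9 (0.11), and with the narrower AL9 limits Zm00001d052117 (-0.30). Against AL9-low barcodes they were, at the median depth or less, MYBR29 (0.10), Zm00001d018951 (0.69), PDK1 (-0.24), gpm549 (0.34) and Zm00001d053108 (0.11), with the 0.5% limit Zm00001d018951 (0.34), at 6000 UMIs 2G046532 (-0.15) and Zm00001d021706 (-0.16), with the narrower AL9 limits 2G046532 (-0.12), without TMM 2G046532 (-0.13) and ELFA9 (-0.09), and without barcodes rich in embryo-surrounding region markers ESR2 (0.01) and Zm00001d038758 (0.33).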
